A study of Mus musculus with 6 samples.

Results

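The genes of central carbon metabolism were followed in 4T1 cells through a fixed list of 41 enzymes, subunits and a lactate transporter. The list held 18 genes of glycolysis, 7 of the pentose phosphate pathway and 16 of pyruvate entry and the tricarboxylic acid (TCA) cycle. A gene counted as measured when a probe had a detection p-value under 0.05 on at least 3 of the 6 arrays, and its brightest such probe then stood for it. By that rule 32 of the 41 genes were measured (13 of 18, 5 of 7 and 14 of 16), among 9348 genes measured on the arrays in all. Hk2, Gpi1, Eno1 and G6pdx had no probe named in the annotation used here. Ldhb, Slc16a3, Pgd, Pcx and Sucla2 had probes, but none of them was detected on more than 2 arrays. Each of the 32 measured genes was detected on all 3 arrays of both groups, so none passed through 1 group alone.

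4T1 is a mammary carcinoma line of BALB/c mouse origin. All 6 samples were total RNA of 4T1 cells stably transfected with a plasmid and grown in the same serum-containing medium, each hybridised to 1 MouseWG-6 bead array. In 3 of them (4T1-SC) the plasmid carried a scrambled control hairpin, and in the other 3 (4T1-MMP3lo) a hairpin against Mmp3, the gene of the secreted matrix metalloproteinase stromelysin 1. The study calls the arrays of a group biologic triplicates, and what was repeated for each is not given. The titles of the arrays labelled 4T1-MMP3lo carry the mark Cl1. In another line, CMS4, the study tried 3 separate hairpin constructs and went on with what it calls clone 1. Whether Cl1 names a construct or a clone of cells is not given. For 4T1 the study does not say whether the cells were a pool or 1 clone. What sets such a clone apart and what the hairpin does cannot be told apart between these groups. The sample titles carry a date, and each of 3 dates stands on 1 array of each group. Replicates 1, 2 and 3 of a group are the arrays of the first, the second and the third date, and what was done on those dates is not given.

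Glycolysis breaks glucose down to pyruvate in the cytosol and can end in lactate, and tumour cells are known for running it quickly even where oxygen is plentiful. The pentose phosphate pathway branches off at glucose 6-phosphate and supplies NADPH and the ribose of nucleotides. Pyruvate that enters the mitochondrion is turned to acetyl-CoA by the pyruvate dehydrogenase complex and oxidised in the TCA cycle. Many glycolytic genes are targets of the hypoxia-inducible transcription factor HIF-1, and several are targets of Myc.

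The labels were first set against the arrays. No difference of Mmp3 was found between the groups (log2 fold change −0.06, SE 0.74, adjusted p = 0.99, limma), and its 3 probes gave −0.06, −0.04 and 0.09. This fit has no term for the date, and Mmp3 also differed with the date (−2.11 on the first date), which widens the SE. By this fit a large change could have gone undetected. The brightest probe measured 11.52 in 4T1-SC and 10.64 in 4T1-MMP3lo on the first date. On the later dates it measured 12.98 and 13.04 against 13.40 and 13.33. The study itself reports lower MMP3 in its 4T1 cells with the hairpin, by qPCR and by ELISA. Where the hairpin binds relative to these probes is not given. The groups are therefore called by their labels, and a change is never read as a response to less Mmp3. In RNA of a whole culture, fewer cells of a kind and less RNA per cell cannot be told apart. Of the 8 epithelial marker genes, 7 were measured and Epcam was detected on no array. Summed over the list, their log2 level was 14.23 to 14.86 in 4T1-SC and 13.90 to 14.07 in the arrays labelled 4T1-MMP3lo. Cldn4 and Cldn7 fell on the latter (limma, adjusted p = 0.0329 and 0.0241), and the part of this shift in the results below was not tested. Markers of other cells were mostly undetected. Of 7 leukocyte markers with a probe, Cd3e and Csf1r passed the filter near background and 5, Ptprc among them, were detected on no array, with a summed log2 level of 7.41 to 7.42 in 4T1-SC and 7.39 to 7.50 in the other group. Of 6 endothelial markers only Kdr passed, and Pecam1 and 2 others were detected on no array (7.12 to 7.19 and 7.12 to 7.29). Of 8 fibroblast markers only Pdgfra, a growth factor receptor of mesenchymal cells, passed, and Col1a1, Lum and Pdgfrb were detected on no array (8.06 to 8.88 and 8.63 to 9.36). Pdgfra was detected on all 6 arrays, at 6.62 to 8.28 in 4T1-SC and 7.91 to 8.94 in the other group, with the first-date array the lowest of each. It differed by 0.93 between groups (SE 0.45, adjusted p = 0.47) and by −1.26 on the first date (SE 0.21, adjusted p = 0.0654, limma), and its part in the results was not tested. The array 4T1-SC replicate 1 stood apart, correlating at 0.938 and 0.954 with the other arrays of its own group but at 0.978 with the 4T1-MMP3lo array of the same date. Values without it are given beside the results it moves.

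Between the labelled groups, glycolytic genes held the only members of the list that passed the test. Eno2 and Pfkm rose on the arrays labelled 4T1-MMP3lo, to 3.83 and 2.05 times their 4T1-SC level after background correction, and no member fell. The other 11 measured glycolytic genes, the 5 of the pentose phosphate pathway and the 14 of pyruvate entry and the TCA cycle did not pass the test. All levels below are background-corrected, quantile-normalized log2 intensities, and rose or fell means an adjusted p under 0.05 in limma with Benjamini-Hochberg adjustment over all 9348 genes. The 2 called members of 32 stand beside 102 of 9348 genes called in this comparison (1.09%), of which 56 were higher (0.599%) and 46 lower (0.492%). At an unadjusted p under 0.05 there were 4 of 32 members (12.5%), close to the 12.2% of all genes. The list was thus near the background at this looser threshold. The groups did not overlap in 3 members (3 higher, 0 lower), against 17.7% of all genes (9.62% higher, 8.07% lower). What follows describes the single genes.

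**Figure D1:**
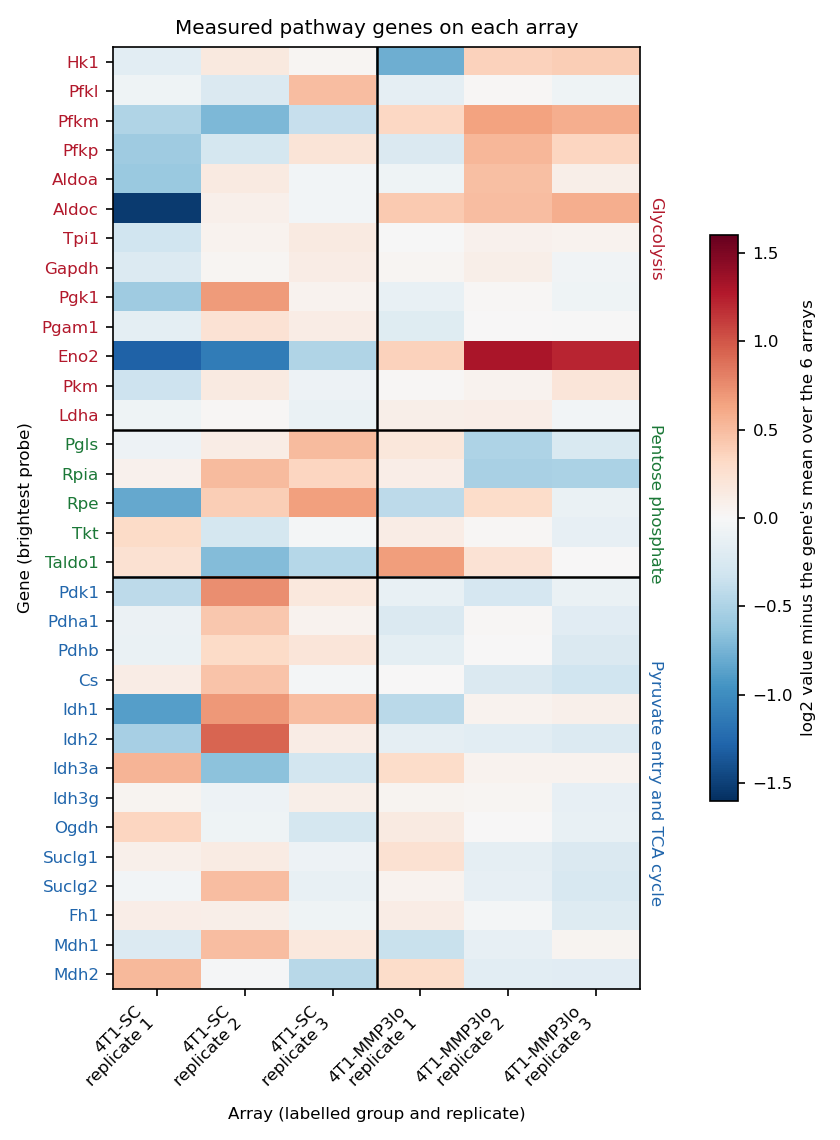
Log2 value of each measured gene on each array, minus that gene's mean over the 6 arrays, coloured from −1.6 (blue) to 1.6 (red); columns are the 3 arrays of 4T1-SC and the 3 labelled 4T1-MMP3lo. Eno2 and Pfkm are below their means on all 3 control arrays and above them on the other 3, while Aldoc is far below its mean on 4T1-SC replicate 1 alone.

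Eno2 encodes the neuronal (gamma) isozyme of enolase, the enzyme that makes phosphoenolpyruvate. Its log2 level was 5.76, 5.93 and 6.57 on 4T1-SC replicates 1 to 3 and 7.42, 8.36 and 8.28 on the arrays labelled 4T1-MMP3lo. The lowest of the latter lay above the highest control array, and all 3 same-date pairs went up, by 1.66, 2.44 and 1.71. As deposited, before any correction, the intensities were 122.4, 161.1 and 182.7 against 266, 379.7 and 438.7. Group means were 6.08 ± 0.43 and 8.02 ± 0.52 (SD, n = 3 arrays). The log2 fold change was 1.94 (SE 0.31, adjusted p = 0.0329, limma). Eno2 had 1 probe. With no background correction the change was 1.16 on the log2 scale and did not pass (adjusted p = 0.0953, limma). The control intensities lie near the medians of those arrays (96.6 to 112.1), so the size of the change is uncertain. Eno1, the ubiquitous enolase, was among the genes with no probe named here, so total enolase message cannot be given.

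Pfkm encodes the muscle-type subunit of phosphofructokinase 1, which catalyses the committed step of glycolysis. Its log2 level was 8.69, 8.45 and 8.79 on the control arrays and 9.49, 9.80 and 9.75 on the arrays labelled 4T1-MMP3lo. The groups were separated by 0.70 between their nearest arrays, and the same-date pairs differed by 0.80, 1.35 and 0.96. Group means were 8.64 ± 0.18 and 9.68 ± 0.17 (SD, n = 3 arrays). The log2 fold change was 1.04 (SE 0.19, adjusted p = 0.0477, limma), and the 3 Pfkm probes gave 0.70, 0.91 and 1.04. Both calls are close to the threshold. Without 4T1-SC replicate 1 they held, at 1.77 for Eno2 (adjusted p = 0.00924) and 1.06 for Pfkm (0.0117). With the date as a block the adjusted p was 0.0158 for Eno2 and 0.0487 for Pfkm, still the only members called, among 194 genes (2.08%). Neither passed when any 1 of 4T1-SC replicates 2 and 3 and 4T1-MMP3lo replicates 2 and 3 was left out, where adjusted p lay between 0.101 and 0.302 (limma), and Pfkm did not pass without 4T1-MMP3lo replicate 1 (0.0715).

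Phosphofructokinase is built from 3 kinds of subunit, and the genes of the other kinds did not pass the test. Pfkl, the liver-type subunit, measured 12.53, 12.37 and 13.08 on the control arrays and 12.46, 12.61 and 12.53 on the others, a difference of −0.13 (95% interval −0.64 to 0.38). Pfkp, the platelet-type subunit, measured 9.09, 9.37 and 9.87 against 9.43, 10.19 and 10.00, a difference of 0.43 (−0.20 to 1.06, adjusted p = 0.61, limma), with the groups overlapping. Pfkm gained 1.17 over Pfkl and 0.61 over Pfkp, and did so in every same-date pair (0.87, 1.11 and 1.52 over Pfkl, and 0.46, 0.53 and 0.83 over Pfkp). In an exact two-sided permutation test over the arrays each comparison gave p = 0.1, the smallest that 3 arrays against 3 allow, and 0.1 after adjustment over the 3 isozyme comparisons made. These isozyme comparisons were chosen after the values were seen.

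The sequences upstream of Eno2, Pfkm and the sister subunits are shown because HIF-1 is a known regulator of glycolytic genes. Each run is the 250 bases before a transcription start in RefSeq, on GRCm38.p6, 5′ to 3′ on the gene's strand. Capitals mark the core letters of the hypoxia response element, ACGTG or GCGTG, on either strand (CACGT or CACGC on the other), with overlapping matches joined in 1 run. Pfkm has 4 listed starts in order along the strand, and start 3 is left out because its window overlaps that of start 2.
Eno2 (chr6:124769674-124769923, minus strand): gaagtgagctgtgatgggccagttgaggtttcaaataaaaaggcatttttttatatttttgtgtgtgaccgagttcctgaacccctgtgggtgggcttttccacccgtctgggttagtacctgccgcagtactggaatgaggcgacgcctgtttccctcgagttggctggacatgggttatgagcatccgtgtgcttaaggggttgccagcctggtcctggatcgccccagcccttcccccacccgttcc
Pfkm, start 1 (chr15:98092339-98092588, plus strand): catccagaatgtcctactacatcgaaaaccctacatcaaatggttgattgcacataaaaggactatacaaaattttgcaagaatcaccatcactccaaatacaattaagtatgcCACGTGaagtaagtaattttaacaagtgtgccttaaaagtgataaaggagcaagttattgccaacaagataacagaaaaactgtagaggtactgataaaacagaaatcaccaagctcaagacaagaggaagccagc
Pfkm, start 2 (chr15:98108221-98108470, plus strand): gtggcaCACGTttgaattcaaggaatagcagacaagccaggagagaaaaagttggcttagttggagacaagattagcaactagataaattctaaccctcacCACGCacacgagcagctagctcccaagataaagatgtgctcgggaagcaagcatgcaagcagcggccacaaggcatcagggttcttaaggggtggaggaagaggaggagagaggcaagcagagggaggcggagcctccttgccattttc
Pfkm, start 4 (chr15:98111810-98112059, plus strand): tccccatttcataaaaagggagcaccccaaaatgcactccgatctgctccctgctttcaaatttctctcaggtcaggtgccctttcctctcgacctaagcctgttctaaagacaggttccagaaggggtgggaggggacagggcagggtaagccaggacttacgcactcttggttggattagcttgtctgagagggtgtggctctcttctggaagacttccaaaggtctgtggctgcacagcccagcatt
Pfkl (chr10:78009808-78010057, minus strand): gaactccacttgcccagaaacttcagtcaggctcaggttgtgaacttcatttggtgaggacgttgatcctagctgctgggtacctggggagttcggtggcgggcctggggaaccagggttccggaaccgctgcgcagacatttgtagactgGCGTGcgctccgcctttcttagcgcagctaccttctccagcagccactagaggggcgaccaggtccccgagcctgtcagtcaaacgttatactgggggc
Pfkp (chr13:6648772-6649021, minus strand): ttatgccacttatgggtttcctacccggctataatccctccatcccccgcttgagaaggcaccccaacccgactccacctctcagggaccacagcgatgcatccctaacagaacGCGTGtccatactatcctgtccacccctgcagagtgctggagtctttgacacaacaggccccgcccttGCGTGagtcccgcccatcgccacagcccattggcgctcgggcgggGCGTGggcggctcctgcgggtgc

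Eno2, the member with the largest change, had no match in its window. Pfkm had 2 matches before start 1, which are the same run CACGTG read on both strands, 2 before start 2 and none before start 4. Pfkl had 1 match and Pfkp 3, and neither passed the test. Among measured members with a window, 26 of 31 (83.9%) held the letters in at least 1 window, beside 4814 of the 7639 genes tested that have a window (63%) and 11226 of 27025 genes in the whole RefSeq table (41.5%). By pathway the counts were 11 of 13 for glycolysis, 4 of 5 for the pentose phosphate pathway and 11 of 13 for the TCA cycle. These short words hold a CG pair, and the windows richest in CG had a median of 16 such pairs in measured members, 17 in genes tested and 6 in the whole table. Genes with more listed starts have more windows in which to match, and the sets were not compared at equal numbers of windows. Of 32851 single windows in the whole table, 38.6% held the letters. The match is a description of letters and no measure of binding. Hif1a itself measured 8.91, 8.82 and 8.58 on the control arrays and 8.61, 9.45 and 9.56 on the others, a difference of 0.44 (SE 0.27, adjusted p = 0.594, limma) that did not pass the test.

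Upstream of these steps, glucose enters the cell through Slc2a1 (Glut1) and is trapped by hexokinase. Hk1 differed between the groups by −0.02 (95% interval −0.76 to 0.72), and Slc2a1, which is outside the list of 41, differed by 0.50 (SE 0.24, adjusted p = 0.45, limma). Aldolase splits fructose 1,6-bisphosphate, and its brain-type isozyme Aldoc measured 6.74, 8.34 and 8.22 on the control arrays and 8.69, 8.76 and 8.85 on the others. The arrays of the 2 groups did not overlap, but 4T1-SC replicate 1 lay 1.48 below the next array. The difference of 0.996 (SE 0.39) did not pass (adjusted p = 0.36, limma), and without that array it was 0.48. Aldoa, the main isozyme of most tissues, measured 11.24, 11.97 and 11.78 against 11.75, 12.30 and 11.92, a difference of 0.33 (SE 0.25, adjusted p = 0.67). Aldoc gained 0.67 over Aldoa, unevenly over the pairs (1.43, 0.08 and 0.49; exact two-sided permutation test, p = 0.1).

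In the lower part of glycolysis the differences were small and none passed the test. Tpi1 (triosephosphate isomerase), Gapdh, Pgk1 (phosphoglycerate kinase), Pgam1 (phosphoglycerate mutase), Pkm (pyruvate kinase) and Ldha (lactate dehydrogenase A) had differences from −0.13 for Pgam1 to 0.18 for Pkm. Their standard errors were 0.17 to 0.30, and all adjusted p-values were at least 0.784 (limma). The 95% interval was −0.37 to 0.45 for Gapdh, −0.28 to 0.49 for Ldha and −0.80 to 0.57 for Pgk1, so that changes within those bounds could have gone undetected. The probes of Pkm, Ldha, Gapdh and Tpi1 were brighter than 99.72% to 99.87% of all probes. The part that this place at the top of the scale had in their small differences was not tested. Over the 13 genes the median difference was 0.10 (0.0542 without 4T1-SC replicate 1, and up to 0.21 with 4T1-MMP3lo replicate 1 left out), with 9 above 0 and 4 below (7 and 6 without 4T1-SC replicate 1), beside 0.0155 and 52.3% above 0 for all genes. Pfkm, Pfkp, Aldoa, Aldoc, Eno2 and Ldha were higher in all 3 same-date pairs and Pgam1 lower in all 3. Here and below, the share of all genes with the same sign in all 3 pairs was not counted.

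**Figure D2:**
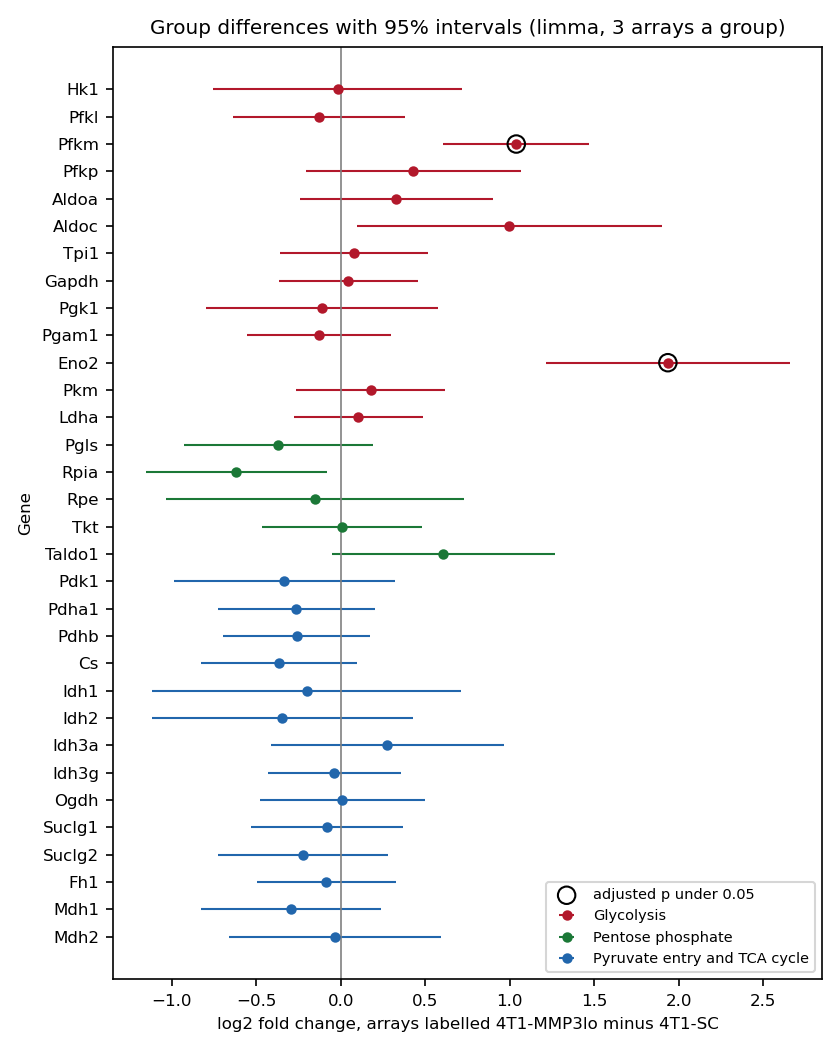
Log2 fold change of each measured gene, arrays labelled 4T1-MMP3lo minus 4T1-SC (x axis), with its 95% interval from limma; rings mark an adjusted p under 0.05 over all 9348 genes. Eno2 (1.94) and Pfkm (1.04) are ringed, and 12 of the 14 genes of pyruvate entry and the TCA cycle lie to the left of 0 (10 with a median shift) with intervals that all cross it.

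In the pentose phosphate pathway no measured gene passed the test. Rpia, ribose 5-phosphate isomerase, came nearest, with 10.10, 10.53 and 10.37 on the control arrays and 10.13, 9.50 and 9.52 on the others. The arrays of the 2 later dates were lower by 1.03 and 0.86, and those of the first date differed by 0.03. The difference was −0.62 (SE 0.23, adjusted p = 0.333, limma). Taldo1, transaldolase, went the other way, with 10.97, 10.04 and 10.27 against 11.40, 10.96 and 10.74. It was higher in all 3 pairs, by 0.43, 0.92 and 0.47, though the groups overlapped. Its difference of 0.61 (SE 0.29, adjusted p = 0.457, limma) rose to 0.88 and passed (adjusted p = 0.0429) when 4T1-SC replicate 1 was left out.

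Pgls, 6-phosphogluconolactonase of the oxidative arm, measured 10.81, 11.01 and 11.40 against 11.07, 10.40 and 10.65. Its first-date arrays differed in the other direction from the later ones, and the difference was −0.37 (SE 0.24, adjusted p = 0.617, limma). Rpe, ribulose phosphate epimerase, differed by −0.15 (SE 0.38). Tkt, transketolase, measured 11.47, 10.88 and 11.14 against 11.29, 11.19 and 11.04, a difference of 0.01 (SE 0.21). Over the 5 genes the median was −0.15 (−0.50 without 4T1-SC replicate 1, −0.00357 without 4T1-SC replicate 3, and −0.0513 with 4T1-MMP3lo replicate 1 left out), and the 3 pairs gave 0.26, −0.09 and −0.75 in turn. The pairs thus did not share a sign. The NADPH-producing dehydrogenases G6pdx and Pgd were not measured.

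At pyruvate entry and in the TCA cycle the differences were small and mostly negative, and none passed the test. Of 14 genes 12 lay below 0 and 2 above, with a median of −0.21 and pair medians of −0.02, −0.36 and −0.19. Leaving out 4T1-SC replicate 1 gave a median of −0.34, and leaving out 4T1-SC replicate 2 one of −0.0501. Leaving out 4T1-MMP3lo replicate 3 gave a split of 9 below and 5 above. With each array shifted to a common median in place of quantile normalization, 10 lay below 0 and 4 above, and with array weights 11 and 3. Cs, citrate synthase, measured 10.32, 10.65 and 10.17 on the control arrays and 10.20, 9.97 and 9.88 on the others. It was lower in all 3 pairs with overlapping groups, and the difference was −0.36 (SE 0.20, adjusted p = 0.536, limma). Pdha1 and Pdhb, subunits of pyruvate dehydrogenase E1, were also lower in all 3 pairs, each by −0.26 (SE 0.20 and 0.19), as was the cytosolic malate dehydrogenase Mdh1 by −0.29 (SE 0.23).

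For several of these genes 1 control array set the difference. Idh2, the mitochondrial NADP-dependent isocitrate dehydrogenase, measured 8.49, 9.96 and 9.14 on the control arrays and 8.89, 8.86 and 8.81 on the others. The 3 control arrays thus spanned 1.47 while the others lay within 0.08 of one another. Its difference was −0.35 (SE 0.34, adjusted p = 0.759, limma) and turned to 0.04 without 4T1-SC replicate 2. Pdk1, the kinase that switches pyruvate dehydrogenase off and a known HIF-1 target, also varied mostly among the control arrays, with 8.06, 9.22 and 8.64 against 8.35, 8.21 and 8.36. Its difference was −0.33 (SE 0.29, adjusted p = 0.72, limma), −0.62 without 4T1-SC replicate 1 and, at the other end, −0.0449 with 4T1-SC replicate 2 left out. Its same-date pairs gave 0.29, −1.01 and −0.28 and so did not share a sign.

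The remaining isozymes of the cycle are set side by side. Idh1, the cytosolic NADP-dependent enzyme, differed by −0.20 (SE 0.40). Idh3a and Idh3g, subunits of the NAD-dependent isocitrate dehydrogenase of the cycle, differed by 0.27 (SE 0.30) and −0.04 (SE 0.17). Suclg1 and Suclg2, subunits of succinyl-CoA synthetase, differed by −0.08 (SE 0.20) and −0.22 (SE 0.22), and Mdh2, the mitochondrial malate dehydrogenase, by −0.04 (SE 0.27). Ogdh (2-oxoglutarate dehydrogenase) and Fh1 (fumarase) differed by 0.01 (SE 0.21) and −0.09 (SE 0.18). The tightest of these, Idh3g, had a 95% interval of −0.43 to 0.35 by its brightest probe. Its other usable probe gave −0.39 (SE 0.21). Of all members 16 had more than 1 usable probe, and 3 of these (Pgk1, Tkt and Pdhb) had probes of both signs.

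**Figure D3:**
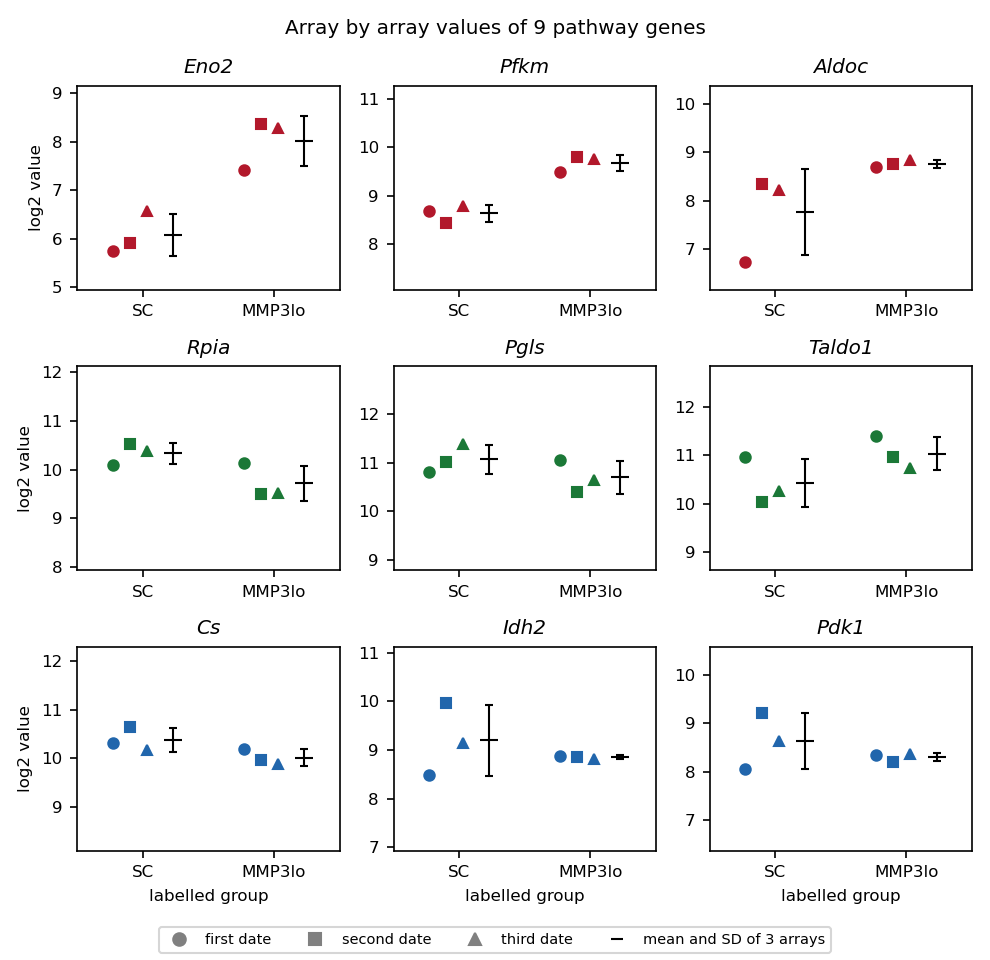
Log2 value of 9 genes on each array (y axes, each spanning about 4 log2 units), by labelled group, with circles, squares and triangles for the first, the second and the third date and the mean and SD of 3 arrays beside them; red is glycolysis, green the pentose phosphate pathway and blue pyruvate entry and the TCA cycle. Eno2, Pfkm and Aldoc do not overlap between groups, while for Idh2 and Pdk1 the control arrays spread wide and the arrays labelled 4T1-MMP3lo sit close together.

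The dates carried by the titles divide the arrays in another way. With the group as a term, no member passed the test between the first date and the 2 later dates (0 of 32, beside 45 of 9348 genes, 0.481%). Of those genes 8 were higher on the first date (0.0856%) and 37 lower (0.396%). This fit leaves 2 residual degrees of freedom. At an unadjusted p under 0.05 there were 10 of 32 members, beside 21.8% of all genes, and the 2 first-date arrays did not overlap the other 4 in 14 members (8 lower, 6 higher), beside 33.5% of all genes (14.9% lower, 18.7% higher). Between the third and the second date no member passed and no gene at all did (0 of 9348, 0%, limma), with 0 members and 1.24% of genes at an unadjusted p under 0.05. The differences between dates are therefore given as values.

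Glycolytic genes lay lower on the first date. Of 13 genes 12 were below 0, with a median of −0.26 beside 0.0218 for all genes. In both labelled groups 10 were below, and the share of all genes doing so was not counted. The glycolysis median was −0.37 within 4T1-SC and −0.11 within the arrays labelled 4T1-MMP3lo. Its size thus differed between the groups while the sign did not. Hk1 was at 7.07 and 6.45 on the 2 first-date arrays, below the other 4 at 7.27 to 7.63. Its difference was −0.71 (SE 0.25, adjusted p = 0.175, limma). Pfkp was at 9.09 and 9.43 on the first date and 9.37 to 10.19 on the rest, a difference of −0.60 (SE 0.21, adjusted p = 0.181), with −0.53 and −0.66 within the groups. Aldoa and Pgk1 had differences of −0.50 and −0.52, and no first-date array of either overlapped the later ones.

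Eno2 and Aldoc, with Hk1, had the 3 largest differences of the pathway. Eno2 was lower on the first date in both groups, by −0.49 in 4T1-SC and −0.90 in the arrays labelled 4T1-MMP3lo, and by −0.69 together (SE 0.23, adjusted p = 0.162, limma). For Aldoc the difference lay in the control group, with −1.54 there and −0.11 in the other, and −0.83 together (SE 0.33, adjusted p = 0.209). The group difference of Aldoc on the first date exceeded that on the later dates by 1.43 (SE 0.28, adjusted p = 0.0956, limma), in a comparison added after the values were seen. No member passed that comparison, beside 82 of 9348 genes (0.877%). Pfkm differed by −0.11 between dates, with 0.07 in 4T1-SC and −0.28 in the other group.

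The pentose phosphate and TCA cycle genes had no common direction between dates. In the pentose phosphate pathway the median was 0.13, with 4 genes above 0 and 1 below, but it was −0.36 within 4T1-SC and 0.55 within the other group. Rpe was low on the first date at 5.85 and 6.25, beside 6.56 to 7.33 on the other arrays, a difference of −0.93 (SE 0.26, adjusted p = 0.134, limma). Taldo1 was 0.69 higher on the first date (SE 0.20, adjusted p = 0.137), with first-date arrays at 10.97 and 11.40 and the rest at 10.04 to 10.96. Tkt was higher by 0.32 (SE 0.20), at 11.47 and 11.29 beside 10.88 to 11.19. Both non-oxidative transferases were thus higher in both groups on the first date, and the epimerase lower in both.

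Within the TCA list the isocitrate dehydrogenase genes had differences of both signs. Idh1 measured 9.03 and 9.47 on the first-date arrays and 9.96 to 10.61 on the others, a difference of −0.99 (SE 0.26, adjusted p = 0.121, limma), the largest of any member. Idh3a went the other way, with 9.80 and 9.56 on the first date and 8.60 to 9.32 on the rest, a difference of 0.63 (SE 0.24, adjusted p = 0.199). Its other usable probe gave −0.32, and the mean of both 0.15. Idh2 was at −0.50 (SE 0.30) and Idh3g at 0.07 (SE 0.19). Mdh2 was higher by 0.61 (SE 0.20, adjusted p = 0.159), at 10.00 and 9.78 beside 9.04 to 9.46, while Mdh1 was at −0.44 (SE 0.20). Over the 14 genes the median was 0.04, with 8 above 0 and 6 below, and it was −0.16 within 4T1-SC and 0.15 within the other group. Without 4T1-MMP3lo replicate 1, which leaves 4T1-SC replicate 1 as the only first-date array, Aldoc, Idh1, Rpe and Idh3a passed, at −1.54, −1.48, −1.35 and 1.02. These 4 of 32 (12.5%) stand beside 1040 of all genes (11.1%), and the lone array is assumed to vary like the others.

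**Figure D4:**
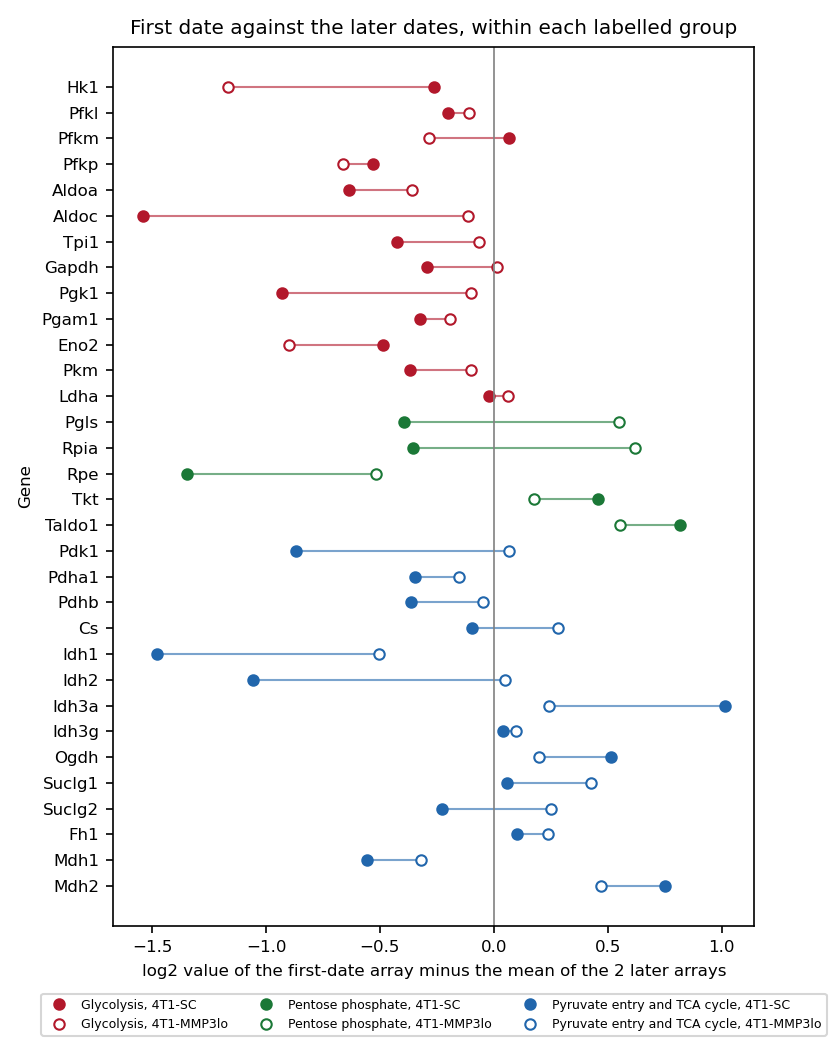
Log2 value of the first-date array minus the mean of the 2 later arrays (x axis) for each measured gene, in 4T1-SC (filled) and in the arrays labelled 4T1-MMP3lo (open), joined by a line. Of 13 glycolytic genes 10 lie left of 0 in both groups, and the longest lines are those of Aldoc (−1.54 and −0.11) and Idh2 (−1.06 and 0.05).

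Mmp3 differed with the date as well, by −2.11 on the first date (adjusted p = 0.0485, limma), at 11.52 and 10.64 beside 12.98 to 13.40. What was done on the dates is not given, so that culture, RNA and array work cannot be told apart. Between the third and the second date the pathway medians were −0.03, 0.0055 and −0.18 for glycolysis, the pentose phosphate pathway and the TCA list.

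Other genes of the same pathways, taken from a fixed list, did not add to the calls. Of 11 measured among 28 further genes of glycolysis and of glucose and lactate transport, 0 passed in either direction in the group comparison or between dates, with a median group difference of 0.02. The largest was Eno3, the muscle enolase, at 0.76 (SE 0.21, adjusted p = 0.169, limma), so that the second enolase measured lay on the same side as Eno2. Of 4 measured among 7 further pentose phosphate genes and of 17 among 28 further TCA and pyruvate genes, again 0 passed, with medians of −0.08 and −0.03. The 17 TCA and pyruvate genes ran from −0.78 (Pdk3) to 0.67 (Me2), with 7 above 0 and 10 below. Pdk3, another pyruvate dehydrogenase kinase, was at −0.78 (SE 0.23, adjusted p = 0.183, limma). Pdp1, an opposing phosphatase, was at 0.62 (SE 0.22, adjusted p = 0.304, limma). The kinase gene Pdk2 was at 0.01 and the phosphatase gene Pdp2 at −0.18, so the phosphatases did not share a sign. Myc was at 0.17 (SE 0.19, adjusted p = 0.801).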

How the data were processed

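The authors deposited the scanner intensity of each of 45281 probes on the 6 arrays and, beside it, a detection p-value, with no background subtraction or normalization visible in them. Beside these, the authors deposited a log2 table of the same arrays, which has the rank order of the intensities and nearly equal medians and so is quantile normalized without background correction. The software they used is not given in the sources used here. The neqc function of limma 3.58.1 (R 4.3.3; offset 16) turned the intensities and their detection p-values into background-corrected, quantile-normalized log2 values. Symbols came from the array annotation (34885 probes with 1 symbol, 18 with several, 10378 not listed) and were updated by gene identifier (34807), by accession (11) or kept (67). Of 16969 probes detected at p under 0.05 on 3 or more arrays, the brightest stood for each of 9348 genes.

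Groups were compared with lmFit and eBayes over all 6 arrays without a block, and dates with the group as a term. P-values were adjusted with Benjamini-Hochberg over all genes. All 41 members are named. Values by array are given for members that passed and for the 3 with the largest group or date difference in each pathway. Array medians of intensity were 96.6 to 112.6, with 16722 to 17548 probes detected, and 3 arrays a group limit the precision. Same-date arrays deviated together (correlations across genes 0.442, 0.212 and 0.283), and the pairing comes from the shared date in the titles. Crossed pairs of the 2 later dates gave 0.309 and 0.235, so by this measure the 2 later dates were not told apart. The date as a block was an alternative, as were other background, filter, probe and normalization settings. The steps were tested on simulated data. Promoter windows are from RefSeq (GRCm38.p6). Of 4 motifs looked at in the windows, the 2 printed were kept. Isozymes were compared with an exact permutation test in SciPy 1.17.1 (Python 3.11.15), and figures drawn with matplotlib 3.10.9. The members and lists were chosen with earlier results of these data known.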

Additional observations from a re-analysis of the deposited data

How the results depend on the processing

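The count of members called between groups was 2 in the report. It was 0 with no background correction (beside 0.128% of all genes) and 0 in the authors' normalized table (0.128%). An offset of 50 gave 0 (0.407%), and no filter on dim probes gave 0 (0.157%). The mean of all kept probes (0.963%) and probes detected on all 6 arrays (0.617%) each gave 1 of 32 (Eno2, 3.12%). With array weights the count was 9 (4 higher and 5 lower, 28.1% of members beside 33.2% of all genes). The methods' t-test gave 0 after Benjamini-Hochberg, where no gene at all passed (0%). At p under 0.05 it gave 2 members (6.25%), fewer than the 11.3% of all genes. At the thresholds of 2-fold and p under 0.01 it gave 2 (6.25%), beside 1.28%. With 1 array left out the limma count ranged from 0 to 3, with 3 without 4T1-SC replicate 1 (9.38% beside 10.7% of all genes). It was 1 without 4T1-MMP3lo replicate 1 (3.12% beside 0.727%) and 0 without any other array (beside 0% to 0.0107%). Across 15 alternatives the log2 fold change of Eno2 was 1.16 to 2.24 (adjusted p 0.0000579 to 0.199, limma; 7 under 0.05) and that of Pfkm 0.88 to 1.13 (0.000141 to 0.302; 4 under 0.05). With the replicate block, which is the date, 2 members were called, the same genes, and 194 genes in all.

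Between the first and later dates the count was 0 to 4 with 1 array left out, 4 without 4T1-MMP3lo replicate 1 (12.5% beside 11.1%). For the group difference on the first date against the later ones it was 1 (Aldoc) with a median shift, 1 (Aldoc) with array weights, and 0 to 7 with 1 array left out (7 without 4T1-SC replicate 3, 21.9% beside 13.4% of all genes); it could not be fitted without a first-date array. The 1 member called there with a median shift or with array weights (3.12%) stands beside 2.4% and 2.3% of all genes. Between the third and the second date the glycolysis median was −0.00609 with a median shift, and −0.071 to 0.139 with 1 array left out. The TCA median was −0.306 to −0.083 with 1 array left out. With 1 array left out, the group difference of Idh2 was −0.698 to 0.0365, above 0 only without 4T1-SC replicate 2, and the first-date difference of Pfkm was −0.284 to 0.0660, above 0 only without 4T1-MMP3lo replicate 1 or 2 (0.00885). The cause of these changes was not tested beyond the fewer arrays or genes in each fit.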

Other observations

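Genes outside the pathways that are known to respond to hypoxia mostly lay lower on the first date. Of 20 such genes, none of them a listed enzyme, 16 were measured, and 14 were lower on the first date, with a median of −0.60 on the log2 scale beside 0.0218 for all genes. This rested largely on 4T1-SC replicate 1, without which 9 were lower and 7 higher, with a median of −0.0967. Leaving out 4T1-MMP3lo replicate 1 gave −0.97. The median deviation from each gene's mean was −0.77 on 4T1-SC replicate 1 and −0.11 on 4T1-MMP3lo replicate 1, and 0.13 to 0.29 on the other 4 arrays. Ndrg1, a stress-induced gene, measured 9.54 and 10.73 on the first-date arrays and 11.00 to 12.01 on the rest, and fell by 1.41 (adjusted p = 0.0486, limma). Adm, the gene of the peptide adrenomedullin, was the 1 gene of this list that rose on the arrays labelled 4T1-MMP3lo, from 4.49, 4.94 and 5.20 to 6.23, 6.38 and 5.95 (fitted log2 difference 1.31, adjusted p = 0.0463, limma). It was detected on 2 of 3 control arrays and on all 3 of the others, so its control level lies at background and the size of the change is uncertain. Car9, a carbonic anhydrase and a standard hypoxia marker, measured 7.47, 8.88 and 8.94 against 9.78, 10.06 and 10.49. Its difference was 1.68 (limma, adjusted p = 0.111, and 0.0284 with the date as a block). The list had no common direction between the groups. Adm between groups and Ndrg1 between dates were the only genes called of 16, beside 1.09% and 0.481% of all genes. At an unadjusted p under 0.05 (limma), 3 genes were higher between groups (Adm, Car9 and Egln3) and 3 lower. Together they were 37.5% of the list, beside 12.2% of all genes. The lower ones were Pdgfb (−0.79), Egln1 (−0.73) and Ak4 (−0.46), and none of them passed the test. Of the 16 genes 10 lay above 0 and 6 below, with a median of 0.10. Leaving out the first-date control array turned that median to −0.197, with 7 above and 9 below.

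Genes of ribosome biogenesis that Myc is known to drive lay the other way. All 10 measured of 12 were higher on the first date, with differences of 0.15 to 1.22. Their median was 0.54 (0.48, with 9 of 10 higher, without 4T1-SC replicate 1). Of these genes 0 passed the test, and 5 (50%) had an unadjusted p under 0.05 (limma), beside 21.8% of all genes. Ncl, nucleolin, measured 10.89 and 10.68 on the first-date arrays and 9.18 to 9.94 on the rest, and Srm, spermidine synthase, 11.90 and 11.75 beside 10.30 to 11.02. Of 12 measured cell cycle genes 9 were higher on the first date, with a median of 0.22, and 0 passed (limma; 2 at an unadjusted p under 0.05). That median was 0.061 without 4T1-SC replicate 1, 0.0817 without 4T1-SC replicate 2, 0.117 without 4T1-SC replicate 3, and 0.351 with 4T1-MMP3lo replicate 1 left out. Between the labelled groups these 2 lists had medians of 0.05 and 0.09 (−0.149 to 0.32 and −0.0554 to 0.162 with 1 array left out). In either list 0 genes were called. At an unadjusted p under 0.05 (limma) there was 1 gene of each (10% and 8.33%), beside 12.2% of all genes.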
